A study of Mus musculus with 6 samples.

Results

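The mitosis genes described here are 49 genes that carry a cell from entry into mitosis through chromosome segregation to cytokinesis, chosen by name as a list that spans these steps. All 49 were present among the 16108 genes of the expression table, and all 49 passed the filter on low values, as did 11664 genes in all. The cells were RAW264.7, a mouse macrophage-like line that divides in culture. They attached overnight to acoustic devices and then spent 48 h there with the device either silent (acoustics-off, 3 libraries) or driven at 5 kHz (18 V between peaks) (acoustics-on, 3 libraries); these are called the silent and the driven libraries below. Both groups sat on the device, and the labels name no other agent or genetic change. Cells grown in a petri dish, a further control of the study, were not analysed here. Since nothing in the labels says that the libraries of a group are separate cultures, a p-value here covers library-to-library spread only, which may be technical.

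Mitosis begins when the kinase Cdk1, bound to a B-type cyclin, is switched on. Chromosomes then condense and attach to the spindle through kinetochores, a checkpoint holds the cell until every kinetochore is attached, and the anaphase-promoting complex (APC/C) triggers separation of the chromosomes and exit. Many of these genes are transcribed only late in the cell cycle, so their RNA in a bulk sample reflects how many cells are cycling as well as the level in each such cell. Those contributions cannot be told apart in these libraries.

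The shared timing of these genes is known to rest on promoter elements called CHR and CCAAT. The CHR is bound by the DREAM repressor complex in resting cells and by activators that include FOXM1 in dividing cells, and CCAAT boxes are bound by NF-Y. RefSeq promoter windows (GRCm38.p6, 250 bases before to 50 bases after a start) were found for 40 of the 49 genes, 43 windows in all. The letters TTTGAA or TTCGAA, on either strand, stood in 36 of the 43 windows (83.7%), against 19.2% of all 32851 windows. The letters CCAAT, on either strand, stood in 33 (76.7%), against 37.4% of all windows. A CCAAT beginning 20 to 40 bases before a CHR was found in 19 windows (44.2%), against 0.968% of all windows. The E2F letters TTTCGCG or TTTGGCG, on either strand, stood in 3 windows (6.98%, against 2.37%). These are matches of letters, not measured binding.

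Promoter stretches free of annotated exons were then searched, at most 120 bases just before each gene, with chromosomes 18 and X left out. Pairs that reached farther from the gene were not counted. In 4 promoters the CCAAT and CHR pair lay wholly inside that stretch. Their bases are given 5′ to 3′ along the gene's strand, with every CHR and CCAAT match, on either strand, in capitals, to show what the pair looks like. They come from Cdc20, the APC/C activator (chr4:118437353-118437472, minus strand), Ncapd2, a condensin subunit (chr6:125191702-125191800, minus), Top2a, the topoisomerase that untangles chromosomes (chr11:99024190-99024309, minus), and Kif11, the motor that separates spindle poles (chr19:37376262-37376381, plus).
Cdc20: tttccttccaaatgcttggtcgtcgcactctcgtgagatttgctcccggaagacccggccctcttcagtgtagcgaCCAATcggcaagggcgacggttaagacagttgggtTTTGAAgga
Ncapd2: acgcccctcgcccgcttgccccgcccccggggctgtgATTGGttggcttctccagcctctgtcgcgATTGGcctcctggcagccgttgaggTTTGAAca
Top2a: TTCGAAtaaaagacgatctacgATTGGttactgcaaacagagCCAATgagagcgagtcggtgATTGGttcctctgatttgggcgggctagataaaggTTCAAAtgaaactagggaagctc
Kif11: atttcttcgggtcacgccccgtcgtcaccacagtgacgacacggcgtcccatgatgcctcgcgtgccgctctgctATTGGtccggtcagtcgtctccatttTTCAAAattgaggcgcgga

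Of the 40 genes with a window, 33 had a CHR in it. Their log2 differences between acoustics on and off ran from -0.56 to 0.55 with a median of -0.04. The 7 without one in the window (Birc5, Ccnb1, Cenpe, Mad2l1, Nuf2, Nusap1 and Pttg1) ran from -0.14 to 0.82 with a median of 0.30. For Pttg1 the window lay inside the annotated gene, and for Mad2l1 it ended before the annotated gene start (66535270 against 66535390). Among the genes with a CHR, the windows of Kif2c, Cdca8 and Kif4 also lay inside the annotated gene. A CHR outside these windows would be missed. The 16 genes with the CCAAT and CHR pair covered the same range as all those with a CHR, with Ube2c at the upper end and Prc1 at the lower end. Genes that share these letters thus took values on both sides of 0.

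All values below are FPKM, a read level scaled for gene length and library size, so levels can be set side by side between genes. Differences are on the log2(FPKM + 1) scale, acoustics on minus acoustics off, which understates the change of genes near 1 FPKM. They were tested with limma over all 11664 genes with Benjamini-Hochberg adjustment at 0.05. Per the authors' deposited table, the mean normalised read count of a mitosis gene ran from 159.0 (Cdc25c) to 5823.9 (Bub3), which at that mean count is a counting error of 7.93% to 1.31% (coefficient of variation). The steps of the lowest values put the relative depth of the 6 libraries between 0.96 and 1.07 of their mean. All 10 macrophage markers checked were expressed, with a summed level of 28202 to 30429 FPKM on the silent device and 20011 to 26925 on the driven device. Most of that sum was Lyz2 (24695 and 19379 FPKM on average), and the mean was lower on the driven device for 7 of the 10 markers and higher for Cd14, Fcgr1 and Spi1. Of the markers of epithelial, endothelial and T cells, only Krt8, Pecam1 with Kdr, and Cd4 were listed in the table. These reached at most 0.192 FPKM per cell type in any library. Epcam, Krt18, Cdh1, Cdh5, Tek, Cd3d, Cd3e and Cd3g were not listed, so the sums cover only part of each list. Fibroblast markers summed to 1.30 to 2.02 FPKM on the silent device and 0.76 to 3.08 on the driven device. The part of these marker levels in the results was not tested. Library values follow in the order of replicates 1, 2 and 3, and paired means give the silent group first, with SD over n = 3.

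On the silent device the mitosis genes spanned a wide range of levels. The centromeric histone gene Cenpa was the highest (78.5 ± 6.32 FPKM, SD, n = 3), followed by the checkpoint gene Bub3 (60.7 ± 2.00) and Cdk1 (38.9 ± 4.51). Ube2c (34.3 ± 1.14) and Cdc25b (34.0 ± 2.16) came next and did not differ beyond their spread. The lowest were the motor genes Kif20a (1.44 ± 0.22) and Kif20b (1.55 ± 0.36) and the separase gene Espl1 (1.53 ± 0.16). They also lay within each other's spread. Genes whose products form 1 complex were not at 1 level: of the NDC80 complex, Nuf2 was at 11.1 FPKM, Spc25 at 8.55, Spc24 at 5.91 and Ndc80 at 4.45.

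Setting driven against silent libraries asks whether the acoustic drive changed the transcripts of the cell division machinery. No mitosis gene passed the test: 0 of 49 were higher and 0 lower, where 1.50% of all genes tested were higher and 0.574% lower. At an unadjusted p under 0.05 there were 6 of 49 (12.2%), against 19.7% of all genes. These were Ccnb1, Kif20a, Ncapg and Pttg1 on the higher side and Kif23 and Knl1 on the lower side. The fitted log2 difference was above 0 for 26 genes (against 47.0% of all genes) and below 0 for 23, with a median of 0.09, against -0.03 over all genes tested. With length and GC trends divided out, 35 of the 49 lay above 0, with a median of 0.14, against -0.01 over all genes tested. With driven replicate 1 also left out, 31 of the 49 lay above 0 and the median was 0.05, against -0.006 over all genes tested. That correction took the longest annotated transcript as a gene's length. For some genes, among them Mad2l1, Cdk1 and Birc5, this may exceed the length counted.

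For 43 of the 49 genes (87.8%) the 95% interval of the log2 difference lay within -1 to 1, that is, within a 2-fold change either way on this scale, against 79.8% of all genes. The intervals of Birc5, Kif20a, Prc1, Pttg1, Spc24 and Ube2c reached past that limit. A p that misses the threshold does not show that the groups were alike, and the intervals give the sizes these libraries leave possible on this scale. They do not bound the change in FPKM itself for genes near 1 FPKM. Knl1, with an interval of -0.84 to -0.15, had a driven mean 0.55 times the silent mean. Its difference was -0.80 with a pseudocount of 0.1 in place of 1. In the authors' deposited table, 1 mitosis gene was higher (Kif20a) and 1 lower (Knl1) at an adjusted p under 0.05, where 5.08% and 2.49% of all genes were.

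**Figure D1:**
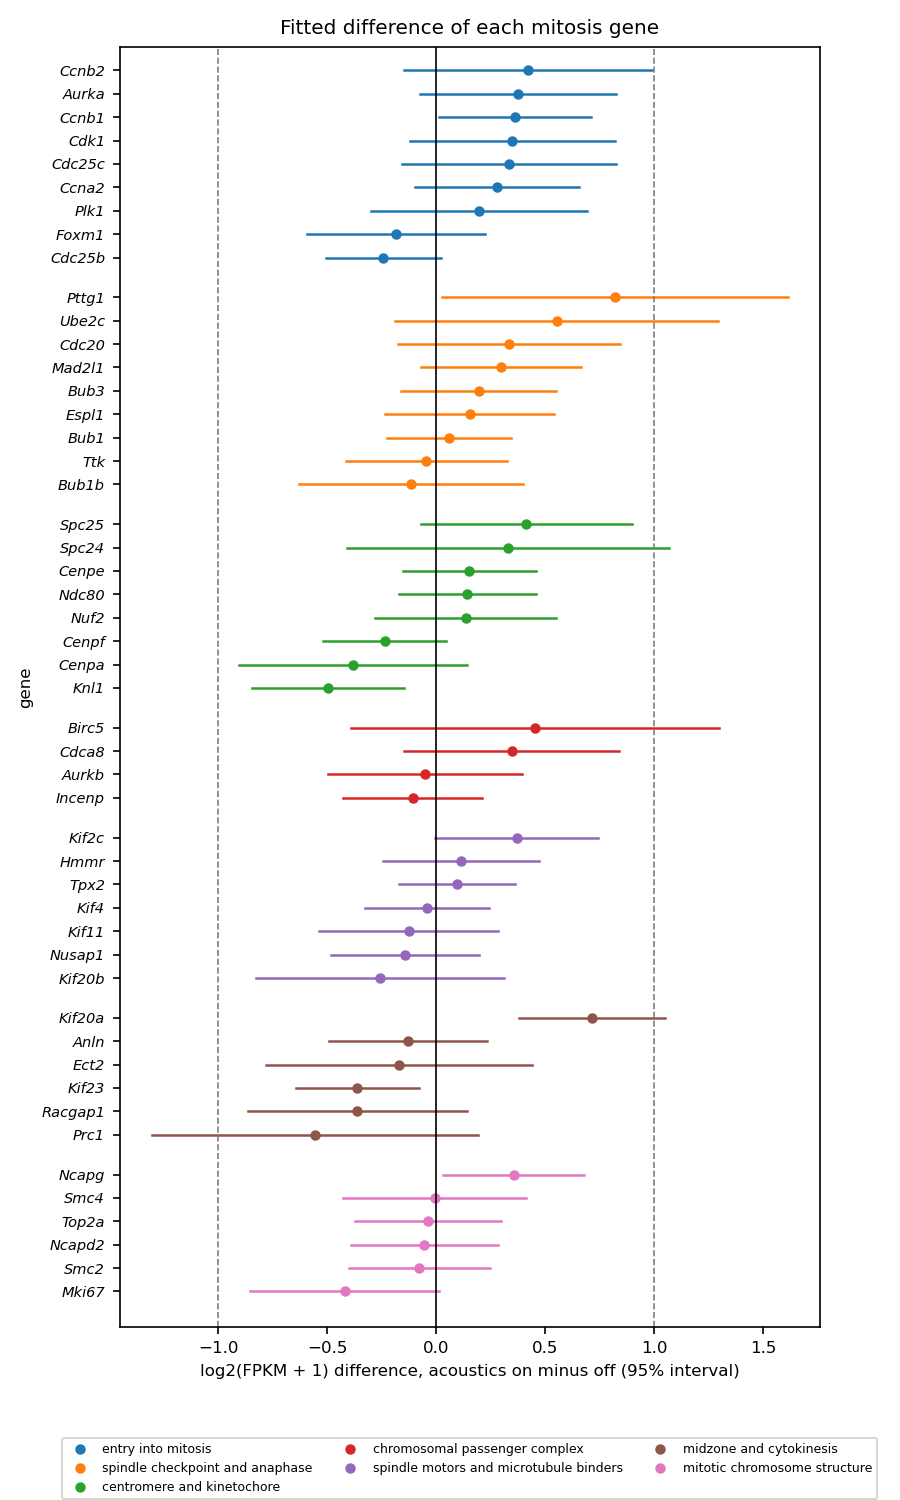
Fitted difference in log2(FPKM + 1), acoustics on minus off, of each of the 49 genes (points) with its 95% interval (lines), grouped and coloured by role; the dashed lines mark a 2-fold change either way. For 43 genes the whole interval lies between the dashed lines, and Kif20a, Pttg1, Ccnb1, Ncapg, Kif23 and Knl1 are the genes whose interval does not cross 0.

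Among the genes of mitotic entry, 7 of 9 had a difference above 0, and the median was 0.33. Cdk1, the kinase that starts mitosis, was at 34.5, 38.6 and 43.5 FPKM in silent replicates 1, 2 and 3 and at 62.4, 51.4 and 37.8 FPKM in driven replicates 1, 2 and 3. Driven replicates 1 and 2 lay above every silent library and replicate 3 lay inside their range (log2 difference 0.35, 95% interval -0.12 to 0.82, adjusted p = 0.349). The difference of Cdk1 was 0.18 without driven replicate 1, 0.54 without driven replicate 3 and 0.54 with length and GC trends divided out. The correction took 4375 bases as the length of Cdk1. Its mean count per FPKM was 31.3, near the 31.5 of Ube2c (2191 bases), so the correction of Cdk1 may be too large. Ccnb1, the cyclin partner of Cdk1, was at 12.5, 14.6 and 16.2 FPKM silent and 18.2, 21.3 and 16.9 driven. The groups did not overlap, yet the gap between them was smaller than the spread inside either group (log2 difference 0.36, SE 0.15, adjusted p = 0.243). The other B-type cyclin, Ccnb2, averaged 20.9 ± 1.67 and 29.4 ± 10.2 FPKM, and the cyclin A gene Ccna2 averaged 12.5 ± 1.01 and 15.5 ± 2.71.

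Cdc25b, a phosphatase that removes the inhibitory phosphates from Cdk1, was at 31.6, 35.5 and 35.0 FPKM silent and 27.6, 29.7 and 28.4 driven. Every driven library was below every silent library (log2 difference -0.24, SE 0.11, adjusted p = 0.280). Its relative Cdc25c was far lower, with 1.69 ± 0.01 FPKM off and 2.49 ± 1.04 on, with replicate 1 of the driven group at 3.68 FPKM and replicates 2 and 3 at 1.78 and 2.00. The entry kinases Plk1 (10.0 ± 0.86 and 11.9 ± 3.75 FPKM) and Aurka (17.5 ± 0.45 and 23.5 ± 6.10) were also highest in that library. Foxm1, the transcription factor of many mitosis genes, averaged 12.2 ± 1.04 and 10.7 ± 2.21 FPKM and was lowest there, at 8.26 FPKM.

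Genes of the spindle checkpoint and of anaphase had a median difference of 0.19, and 7 of 9 lay above 0. Pttg1, which encodes securin, the inhibitor of separase, was at 17.8, 21.3 and 20.2 FPKM silent and 63.9, 29.2 and 24.2 driven. All driven libraries were above all silent libraries, and replicate 1 stood far above the others (log2 difference 0.82, SE 0.34, 95% interval 0.03 to 1.61, adjusted p = 0.243), and without it the difference of Pttg1 was 0.41. Ube2c, the ubiquitin-conjugating enzyme of the APC/C, showed the same high library, with 85.7, 45.5 and 33.5 FPKM on the driven device against 33.0 to 35.2 on the silent device. The APC/C activator Cdc20 averaged 16.7 ± 1.34 and 21.9 ± 6.65 FPKM.

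The checkpoint genes Bub1, Bub1b, Bub3, Mad2l1 and Ttk had log2 differences from -0.12 to 0.30. Mad2l1, which encodes the checkpoint protein MAD2, was at 15.3, 17.6 and 18.7 FPKM silent and 23.9, 22.7 and 17.6 driven (log2 difference 0.30, SE 0.16, adjusted p = 0.319). With length and GC trends divided out the difference was 0.64, with 7557 bases taken as the length. The mean count per FPKM was 76.8, near the 76.2 of Cdc25c (1945 bases), so the 0.64 of Mad2l1 may be overcorrected. The groups overlapped through driven replicate 3. The checkpoint kinase gene Bub1 averaged 9.62 ± 0.78 and 10.0 ± 0.29 FPKM (95% interval of the log2 difference -0.23 to 0.34), which was among the narrower intervals of the list. Bub3 averaged 60.7 ± 2.00 and 70.3 ± 12.2 FPKM, Bub1b 22.5 ± 2.69 and 21.1 ± 5.73, and the kinase gene Ttk 3.24 ± 0.62 and 3.09 ± 0.30. Separase (Espl1), the protease that cuts cohesin, averaged 1.53 ± 0.16 and 1.84 ± 0.51 FPKM.

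Of the 8 centromere and kinetochore genes, 5 lay above 0 and 3 below, with a median of 0.14. Knl1 (chromosome 2, 119047119 to 119105501, GRCm38), a kinetochore scaffold that recruits checkpoint proteins, was at 2.26, 1.48 and 1.75 FPKM silent and 0.80, 1.11 and 1.09 driven. Every driven library was below every silent library (log2 difference -0.50, SE 0.15, adjusted p = 0.151). The authors' deposited table gives Knl1 a log2 fold change of -0.87 with an adjusted p of 0.0125. Spc25, a subunit of the NDC80 complex that grips microtubules, was at 8.32, 8.64 and 8.68 FPKM silent and 16.4, 10.3 and 9.40 driven (log2 difference 0.41, SE 0.20, adjusted p = 0.303). Its groups did not overlap, and replicate 1 on the driven device was again the highest.

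The other NDC80 subunits overlapped between groups, with means off and on of 4.45 and 5.04 FPKM for Ndc80, 11.1 and 12.4 for Nuf2 and 5.91 and 8.28 for Spc24. Cenpa was at 71.2, 82.4 and 82.0 FPKM silent and 74.5, 68.2 and 42.1 driven. Here replicate 3 on the driven device was the library apart, below the rest (log2 difference -0.38, SE 0.22, adjusted p = 0.354). Cenpf, a large outer kinetochore protein, averaged 2.51 ± 0.18 and 1.97 ± 0.13 FPKM with no overlap, and the kinetochore motor gene Cenpe averaged 2.69 ± 0.19 and 3.10 ± 0.33 FPKM with overlap.

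The chromosomal passenger complex, made of the Aurora B kinase, Incenp, survivin and borealin, corrects faulty attachments. Its subunits did not share a direction. Birc5, the survivin gene, was at 17.0, 20.1 and 21.3 FPKM silent and 47.0, 26.4 and 15.5 driven, so that the driven group held both the highest and the lowest value (log2 difference 0.45, SE 0.36, adjusted p = 0.470). Without driven replicate 1 the difference of Birc5 was 0.06, and without replicate 3 it was 0.83. Cdca8, the borealin gene, was at 18.4, 17.8 and 19.2 FPKM silent and 33.4, 19.9 and 20.1 driven (log2 difference 0.35, SE 0.21, adjusted p = 0.368). Without replicate 1 the driven values of Cdca8 were within 2 FPKM of the silent mean. Aurkb averaged 20.4 ± 2.00 and 19.95 ± 4.77 FPKM, and Incenp 13.4 ± 1.63 and 12.3 ± 0.68.

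Spindle motors and microtubule binders had a median difference of -0.04, with 3 of 7 above 0. Kif2c, a kinesin that takes microtubules apart at centromeres, was at 4.97, 5.78 and 5.82 FPKM silent and 8.96, 7.20 and 6.27 driven, without overlap (log2 difference 0.37, SE 0.16, adjusted p = 0.258). Kif20b was at 1.74, 1.14 and 1.78 FPKM silent and 0.48, 1.51 and 1.56 driven. Only replicate 1 of the driven group lay below the silent range (log2 difference -0.26, SE 0.24, adjusted p = 0.535). Tpx2, an activator of Aurora A, had the narrowest interval of this group (log2 difference 0.09, -0.17 to 0.36), with 12.4 ± 0.29 and 13.3 ± 0.64 FPKM. The remaining genes were Kif11 (5.15 ± 0.53 and 4.69 ± 1.08 FPKM), the chromokinesin Kif4 (1.91 ± 0.13 and 1.83 ± 0.18), Hmmr (5.85 ± 0.79 and 6.41 ± 0.85) and Nusap1 (7.34 ± 0.78 and 6.55 ± 0.79), and all of them overlapped.

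**Figure D2:**
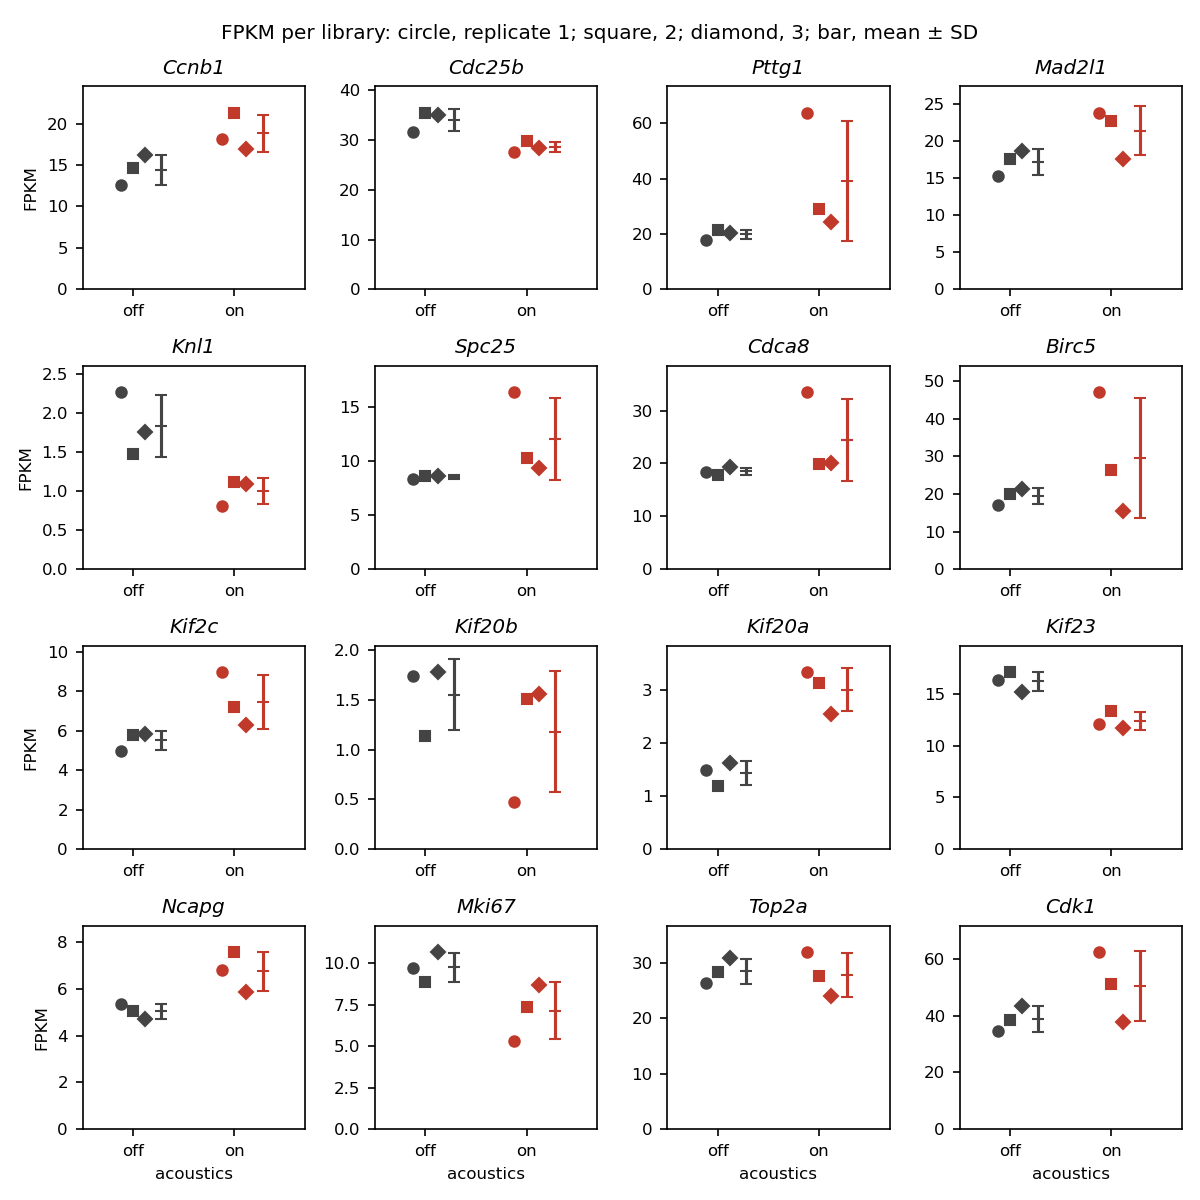
FPKM in each library (circle, square and diamond for replicates 1, 2 and 3) and mean ± SD of 16 mitosis genes, acoustics off in grey and on in red, each panel starting at 0. Kif20a stands apart between groups in all libraries, while for Pttg1, Birc5, Cdca8 and Spc25 the red circle, driven replicate 1, lies far above the other points.

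Genes of the spindle midzone and cytokinesis had the lowest median, -0.27, and 1 of 6 lay above 0. That gene was Kif20a (chromosome 18, 34624613 to 34633277), a kinesin that carries the passenger complex to the midzone. It was at 1.49, 1.19 and 1.63 FPKM silent and 3.33, 3.12 and 2.54 driven. The lowest driven value was above the highest silent value, and the mean was 2.09 times as high. Among the 49 genes Kif20a had the smallest p (log2 difference 0.71, SE 0.14, 95% interval 0.38 to 1.05), but its adjusted p of 0.060 missed the threshold. The authors' deposited table gives it a log2 fold change of 1.06 with an adjusted p of 0.000181.

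The call on Kif20a turned on the settings. It passed without driven replicate 1 (log2 difference 0.65, adjusted p = 0.0368), where 4.34% of all genes were higher, and with length and GC trends divided out (0.81, adjusted p = 0.0374), where 3.38% were; the latter call was lost with the replicate number as a block (adjusted p = 0.0871). With both changes Kif20a passed as higher (6.06% of all genes) and Cenpa as lower (5.78%). With gene-by-gene library weights, a setting added after the data were seen, 5 mitosis genes were higher (9.41% of all genes), and with the default weights, whose estimation did not converge, 22 were higher and 8 lower (27.9% and 28.1% of all genes). Kif20a failed without any 1 silent library (log2 difference 0.64 to 0.77, adjusted p = 0.229 to 0.277), where only 0.121% to 0.164% of all genes were higher. It also failed without driven replicate 2 (adjusted p = 0.0982, 1.64% of all genes higher) or replicate 3 (0.0845, 0.426%). Exons of Kif20a overlap those of Cdc23, an APC/C subunit gene on the opposite strand, and the use of strand in the counting is not given in the sources used here. Cdc23 was at 26.2, 26.3 and 23.9 FPKM silent and 12.7, 26.8 and 25.5 driven, so that the groups overlapped and only driven replicate 1 stood apart.

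The other midzone genes lay on the lower side. Kif23, a motor of the centralspindlin complex, was at 16.3, 17.1 and 15.2 FPKM silent and 12.1, 13.4 and 11.7 driven, with no overlap and little spread in either group (log2 difference -0.36, SE 0.12, adjusted p = 0.182). Its partner in centralspindlin, Racgap1, averaged 28.1 ± 2.93 and 22.2 ± 6.30 FPKM and overlapped. Prc1, which bundles midzone microtubules, was at 16.1, 17.5 and 15.2 FPKM silent and 6.25, 17.6 and 10.9 driven. Its replicate 2 on the driven device was the highest of all 6 libraries and replicate 1 the lowest (95% interval of the log2 difference -1.31 to 0.19). Ect2, the activator of RhoA at the division plane, averaged 6.94 ± 0.67 and 6.33 ± 2.43 FPKM, and the ring scaffold gene Anln 10.0 ± 1.06 and 9.08 ± 1.35.

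Among genes of mitotic chromosome structure, 1 of 6 lay above 0, with a median of -0.05. Mki67, whose product Ki-67 coats mitotic chromosomes and is the common marker of cycling cells, was at 9.73, 8.89 and 10.7 FPKM silent and 5.34, 7.39 and 8.72 driven. All driven libraries were below all silent libraries, with replicate 3 just under the silent minimum (log2 difference -0.42, SE 0.18, adjusted p = 0.262). The difference of Mki67 was -0.25 without driven replicate 1 and -0.02 with length and GC trends divided out. Top2a was at 26.3, 28.4 and 30.8 FPKM silent and 31.9, 27.6 and 24.0 driven (log2 difference -0.04, 95% interval -0.37 to 0.30, adjusted p = 0.886), a difference that became 0.20 with length and GC trends divided out. These common proliferation markers therefore did not take the same order across libraries: driven replicate 1 was the highest library for Top2a and the lowest for Mki67.

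Ncapg, a condensin subunit, was at 5.36, 5.06 and 4.70 FPKM silent and 6.79, 7.57 and 5.89 driven, without overlap (log2 difference 0.35, SE 0.14, adjusted p = 0.227). Its condensin partners had log2 differences close to 0, with means off and on of 10.96 and 10.6 FPKM for Ncapd2, 10.4 and 9.87 for Smc2 and 21.3 and 21.5 for Smc4. Over the whole list, groups did not overlap for 14 genes, 9 on the driven device above (18.4%, against 17.1% of all genes) and 5 below (10.2%, against 17.7%). The 9 were Ccnb1, Cdc25c, Cdca8, Kif20a, Kif2c, Ncapg, Pttg1, Spc25 and Tpx2, and the 5 were Cdc25b, Cenpf, Kif23, Knl1 and Mki67.

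**Figure D3:**
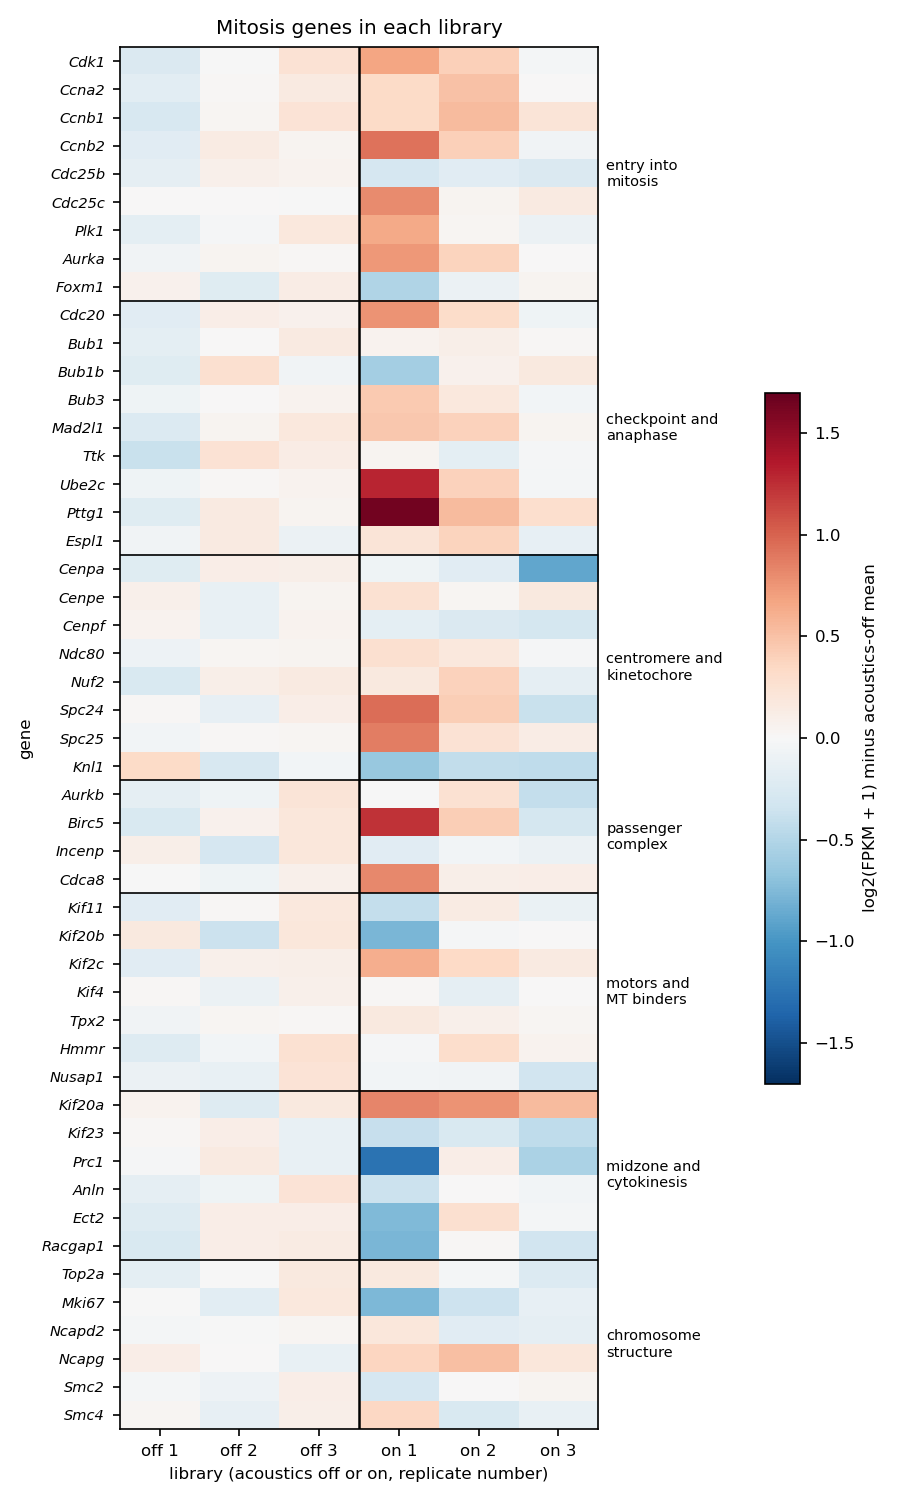
Deviation of each gene (rows, ordered by role) in each library (columns) on the log2(FPKM + 1) scale. Driven libraries are set against the mean of the silent group, and each silent library against the mean of the other silent libraries. In driven replicate 1, Pttg1, Ube2c and Birc5 are the reddest and Prc1 the bluest; Cenpa is the bluest gene of replicate 3.

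The driven libraries differed among themselves more than the silent libraries did. The SD of log2(FPKM + 1) was larger on the driven device for 41 of 49 mitosis genes (83.7%, against 89.3% of all genes tested), with a median SD of 0.27 on and 0.11 off. Driven replicate 1 held the highest value of 22 of the 49 genes and the lowest of 12. Of all genes tested, 34.7% were highest and 39.2% lowest in it. Silent replicate 1 held the lowest value of 19 of the 49 genes (15.3% of all genes tested). Driven replicate 3 held the highest of 0 (18.5% of all). The median deviation of the mitosis genes from the silent mean was 0.17, 0.10 and -0.04 in driven replicates 1, 2 and 3. In silent replicates 1, 2 and 3, each set against the other silent libraries, it was -0.08, 0.01 and 0.11. The value of silent replicate 3 thus lay above that of driven replicate 2.

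By role the contrast inside replicate 1 was wide. The median deviation there was 0.65 for entry genes, 0.45 for checkpoint and anaphase genes and 0.40 for the passenger complex, but -0.57 for midzone and cytokinesis genes. In replicate 3 the same medians were 0.01, -0.02, -0.20 and -0.19, and in replicate 2 they were 0.38, 0.32, 0.18 and 0.07. Among these roles, the medians of entry and checkpoint genes were above those of the passenger complex and the midzone genes in all 3 driven libraries. The remaining roles did not follow 1 order. In replicate 3 the spindle motors and microtubule binders (0.013) lay above the entry genes (0.0075), and the centromere and kinetochore genes were at -0.225.

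These deviations went with transcript length. The longest annotated transcripts ran from 1466 bases (Cenpa) to 11130 bases (Cenpf). Across the 49 genes the rank correlation of deviation with length was -0.51, -0.39 and -0.02 in driven replicates 1, 2 and 3, and 0.32, -0.43 and 0.14 in silent replicates 1, 2 and 3. Genes within a library share its depth and preparation, and these values are descriptions. Over 10462 protein-coding genes tested the correlations in the driven libraries were -0.59, -0.47 and 0.03. The mean count per FPKM, another measure of length, correlated with the longest transcript at 0.83 across the 49 genes. With it in place of the longest transcript, the correlations of the 49 genes in the driven libraries were -0.60, -0.54 and 0.01.

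In replicate 1 the 25 shorter mitosis genes had a median deviation of 0.45 and the 24 longer ones 0.00; in replicate 2 these were 0.25 and 0.02, and in replicate 3 -0.06 and -0.01. Short Pttg1 (1674 bases) deviated by 1.64 in replicate 1, and long Mki67 (10061 bases) by -0.76 and Knl1 (7800 bases) by -0.64. Length did not order every gene, since Prc1 (3026 bases) had the lowest deviation of the list in that library, -1.25. With a length and GC trend divided out of each library, the correlations across the 49 genes in the driven libraries were 0.03, -0.04 and -0.04. The median deviations were then 0.42, 0.10 and -0.05, so the libraries still differed. The part of length in the differences between groups was not tested beyond this correction.

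**Figure D4:**
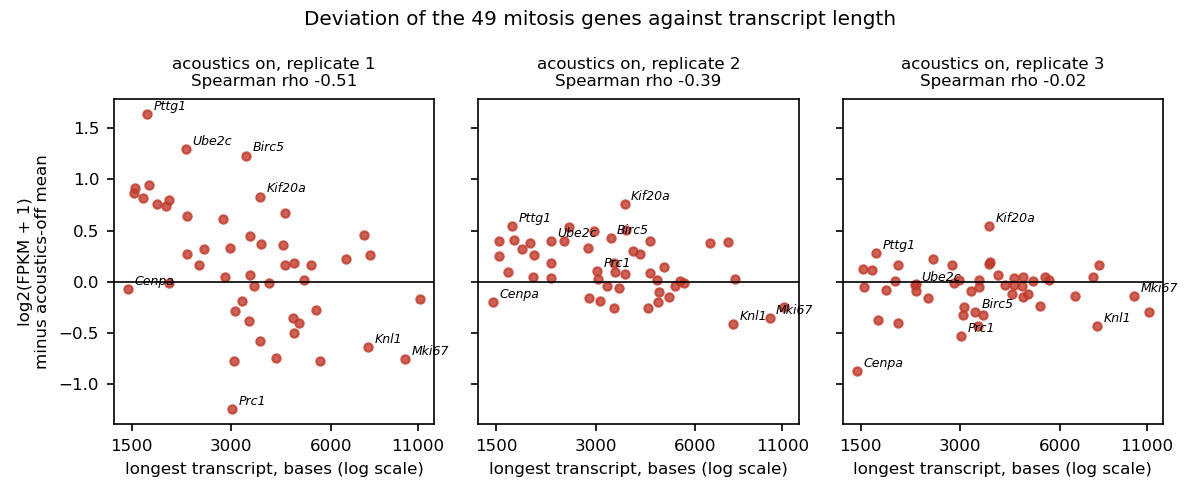
Deviation of the 49 mitosis genes from the silent mean, on the log2(FPKM + 1) scale, against the length of the longest annotated transcript (log axis), in each driven library. Shorter genes lie higher than longer ones in replicates 1 and 2 (Spearman rho -0.51 and -0.39) and not in replicate 3 (-0.02), and Kif20a lies above 0 in all of them.

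In 10 further lists of cell cycle genes, 0 of 173 genes tested were higher and 1 was lower by limma (against 1.50% and 0.574% of all genes), while the authors' deposited table calls 8 higher and 4 lower (against 5.08% and 2.49%). Those calls of the authors' table were Ccne1, Zwint, Rrm2, Gins4, Gadd45g, Gadd45b, Gadd45a and Cdkn1a on the higher side and Btg2, Btg1, Pds5b and Smc1a on the lower side. The counts of genes that passed given below are by limma. The 1 gene was Btg2, an antiproliferative gene (24.1, 23.4 and 28.6 FPKM silent, 5.63, 8.26 and 6.23 driven, log2 difference -1.78, SE 0.17, adjusted p = 0.0063). Gadd45g (3.65 ± 0.19 and 8.32 ± 2.31 FPKM, adjusted p = 0.0581) and Gadd45b (46.7 ± 3.77 and 69.5 ± 6.65 FPKM, adjusted p = 0.0863), both stress-induced growth arrest genes, did not pass. The list of 13 tested had a median of -0.20.

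Among upstream regulators, 0 of 14 G1 and S phase cyclins, kinases and E2F factors passed. Ccne1, the cyclin of S phase entry, was at 4.66, 5.67 and 4.62 FPKM silent and 12.7, 7.92 and 9.66 driven, without overlap (log2 difference 0.87, SE 0.19, adjusted p = 0.0728). Rb1, which restrains S phase entry, averaged 16.4 ± 1.25 and 10.1 ± 2.76 FPKM, and Ccnd1 98.1 ± 1.59 and 134.8 ± 22.1. Of 34 replication genes 0 passed and the median was 0.19. The median deviation of the replication genes was 0.40, 0.16 and -0.10 in driven replicates 1, 2 and 3. Rrm2, a subunit of the enzyme that makes deoxyribonucleotides, averaged 15.8 ± 0.40 and 25.3 ± 3.59 FPKM (adjusted p = 0.0697), Gins4 23.1 ± 1.89 and 35.1 ± 6.42, and Rfc1 16.7 ± 0.51 and 12.4 ± 1.52. The 12 DREAM and MuvB components, which include the repressors and activators of the CHR, had a median of 0.02 and 0 passed. In that list Mybl2 averaged 4.33 ± 0.67 and 5.69 ± 0.38 FPKM, E2f5 8.60 ± 0.41 and 10.7 ± 0.65, and Lin52 2.87 ± 0.07 and 3.56 ± 0.13.

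Of 30 other kinetochore genes tested, 24 lay above 0 (80%, against 47.0% of all genes) and 0 passed. Their median deviation was 0.30, 0.22 and 0.10 in driven replicates 1, 2 and 3. Zwint, a partner of Knl1, averaged 34.9 ± 1.52 and 55.8 ± 7.08 FPKM without overlap (log2 difference 0.66, SE 0.13, adjusted p = 0.0600), opposite in sign to Knl1 itself. Hjurp, the chaperone that loads Cenpa, averaged 17.6 ± 0.66 and 10.3 ± 3.32 FPKM, and Cenph 4.89 ± 0.27 and 7.32 ± 1.47. Of 16 APC/C subunits and partners 0 passed. The extending enzyme Ube2s averaged 62.0 ± 3.23 and 115.0 ± 61.0 FPKM, Anapc11 52.0 ± 1.24 and 79.1 ± 30.2, and Anapc10 3.28 ± 0.07 and 4.79 ± 2.16, and all 3 were highest in driven replicate 1.

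Cohesin and its regulators had a median of -0.26 over 15 genes, with 3 above 0 (20%, against 47.0% of all genes) and 0 past the threshold. The median deviation of these genes was -0.49, -0.09 and -0.04 in driven replicates 1, 2 and 3, so replicate 1 stood apart. The part of transcript length in this and the other further lists was not tested. Smc1a, a core cohesin subunit, averaged 28.3 ± 1.85 and 18.3 ± 3.915 FPKM, Pds5b 5.25 ± 0.20 and 3.61 ± 0.27, and Cdca5 6.13 ± 0.18 and 7.96 ± 0.83. Of 24 other spindle and centrosome genes 0 passed (median -0.04), with Numa1 at 49.6 ± 2.14 and 33.6 ± 8.35 FPKM, Cep55 at 1.89 ± 0.93 and 3.15 ± 0.34, and Cep152 at 1.33 ± 0.14 and 0.96 ± 0.34. Of 11 entry brakes and partners 0 passed (median 0.07). The Cdk1 partners Cks2 (19.9, 20.7 and 22.4 FPKM silent, 50.4, 30.9 and 26.1 driven) and Cks1b (35.9 ± 2.58 and 59.9 ± 27.9) and the phosphatase inhibitor gene Arpp19 (92.4 ± 3.25 and 132.6 ± 60.1) had the smallest p there, all highest in driven replicate 1. The 4 other condensin genes had a median of -0.04, and Ncapg2 (3.50 ± 0.30 and 3.17 ± 1.05 FPKM), Ncaph (9.22 ± 0.61 and 8.71 ± 0.54) and Ncapd3 (3.73 ± 0.31 and 4.03 ± 0.59) overlapped between groups.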

How the data were processed

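RNA of 3 acoustics-off and 3 acoustics-on samples was sequenced. Per the labels' protocols the libraries used ribosomal RNA depletion, while the labels' molecule field says polyA RNA. The submitters' processing notes name GRCm38 and, with no role for each, DESeq2 1.38.2, Salmon 1.4.0, STAR 2.7.11 and Trim Galore 0.6.8. Values per gene and library are FPKM, as the authors deposited them. They also deposited a comparison table with a mean count per gene scaled by library (a signal), log2 fold changes with standard errors, a Wald score, and p-values with adjusted p-values. No counts were in these files.

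Relative depth was read from the steps of low values, of which 57.8% to 66.8% came within 0.05 of a whole read, too few for reads to be recovered. The test used log2(FPKM + 1) of the genes that reached 0.5 FPKM in 3 or more libraries. It was run with limma 3.58.1 in R 4.3.3 (trended, robust prior, no replicate term, Benjamini-Hochberg at 0.05). The procedure was tried on simulated data with equal spread in both groups and independent genes. That setting does not cover the larger spread of the driven libraries. Intervals are limma's unadjusted 95% intervals. The members and lists were chosen with earlier results of these data known. Values are given in full for up to 2 genes of smallest p per role, Mki67, Top2a, Cdk1, Ccnb1 and, chosen after their values were seen, Cenpa, Prc1, Ube2c and Cdc25c, and up to 3 per further list. Symbols of all 49 were found in GENCODE M21 (GRCm38), the source of lengths and positions. Alternatives were other pseudocounts, filters, scalings, priors, library weights, a replicate term, a loess (span 0.5) length and GC correction, and each library left out. One further marker list is not reported here.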

Additional observations from a re-analysis of the deposited data

How the results depend on the processing

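Over all settings tried the median log2 difference of the mitosis genes ran from 0.04 to 0.14, and it ran from 0.04 to 0.13 with each library left out. The count of mitosis genes past the threshold stayed at 0 higher and 0 lower with other pseudocounts, filters, scalings and priors. Leaving out a library gave 0 to 1 higher and 0 lower, the 1 being Kif20a without acoustics-on replicate 1. It was 1 higher and 0 lower with the length and GC correction (395 and 365 over all genes), and 1 higher (Kif20a) and 1 lower (Cenpa, log2 difference -0.64, adjusted p = 0.0428) with that correction and without acoustics-on replicate 1 (699 and 666).

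Library weights gave the widest change: with the default method, which did not converge, 22 were higher and 8 lower (3254 and 3272 over all genes). With the gene-by-gene method, added after seeing the data, 5 were higher and 0 lower (1098 and 784), namely Aurka, Ccnb1, Kif20a, Ncapg and Pttg1. Over all genes the counts were 116 and 34 with no filter, and 14 to 498 higher and 3 to 357 lower with a library left out, against 175 and 67. With the replicate number as a block, 0 mitosis genes passed (133 higher and 46 lower over all genes; Kif20a adjusted p = 0.14), and 83 and 30 genes passed with the block and the length and GC correction, under which Kif20a lost the call it had with the correction alone (adjusted p = 0.0871 against 0.0374). Deviations of same-numbered libraries correlated at -0.07, -0.02 and -0.004, and those of differently numbered libraries at -0.116 to 0.117. With 3 libraries per group this cannot show whether the numbers pair the samples.

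Top2a changed sign with the length and GC correction (0.20, also with the block), without acoustics-off replicate 3 (0.018) and without acoustics-on replicate 3 (0.061), and ran from -0.137 to 0.061 with each library left out. Kif20b did so with the correction and without acoustics-on replicate 1 (0.025). None of these passed. Differences that moved by over 1.5 times without acoustics-on replicate 1 were also those of Pttg1 (0.41), Birc5 (0.06), Spc25 (0.19), Cdca8 (0.11), Cdk1 (0.18), Mki67 (-0.25) and Kif20b (-0.0003), and without acoustics-on replicate 3 those of Birc5 (0.83), Cdk1 (0.54), Cenpa (-0.13) and Kif20b (-0.40). With the correction they were those of Mad2l1 (0.64), Knl1 (-0.30), Spc25 (0.23), Cdca8 (0.17), Kif20b (-0.15), Mki67 (-0.02), Cdk1 (0.54) and Cenpa (-0.58). Each group has 3 libraries; counting error at a gene's mean count over all 6 reaches 7.93%, and is larger in libraries below that mean.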
